A study of Lentinus brumalis with 11 samples.

Results

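Late growth of the white-rot fungus Polyporus brumalis on wheat straw was compared with its growth in liquid malt, gene by gene. The comparison rests on 6 of the 11 RNA-seq libraries of the series, 3 from Day 15 of solid-state fermentation (SSF) and 3 from the liquid control, chosen by their labels and not by any measured value. All libraries came from mycelium of the dikaryotic strain BRFM 985, and every group had been fed 2% malt extract at some stage. The Day 15 cultures were pregrown for 6 days on malt extract and then spent 15 days at 28 °C in glass packed-bed columns of sterilized straw that had received copper, iron and manganese sulfate under a moist air stream. The control mycelium had 10 days on malt extract as still liquid cultures, for which the sources mention no straw, metals or air stream. Substrate, solid against liquid growth, metals, aeration and culture age cannot be told apart in this design. The 3 libraries of Day 10 and the 2 libraries of Day 4 on straw show where Day 15 differs from earlier straw growth. They also entered the same fit, filter and scaling, and so shape the standard errors and p-values of Day 15 against the control.

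White-rot fungi are the organisms known for breaking down lignin, the aromatic polymer that embeds cellulose and hemicelluloses in straw. They secrete class II peroxidases, grouped in CAZy family AA2, which use hydrogen peroxide to oxidize lignin directly or through manganese ions. Copper radical oxidases of subfamily AA5_1 and several flavin enzymes of family AA3 can supply that peroxide, while lytic polysaccharide monooxygenases (AA9), glycoside hydrolases (GH) and carbohydrate esterases (CE) open and cut the polysaccharides. Cytochrome P450 monooxygenases (P450s), glutathione S-transferases (GSTs) and transporters of the major facilitator superfamily (MFS) are known for handling small molecules such as aromatic fragments and sugars. Genes are given by their protein ID (#) and by the family the study's annotation assigned.

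The 3 Day 15 libraries held 20368063 to 36542662 counted reads and the 3 control libraries 35964192 to 42408348, so the control was sequenced more deeply than 2 of the 3 Day 15 libraries. Rank correlations between replicates of a group ran from 0.994 to 0.997, and no replicate pair agreed as closely as repeated sampling of 1 library would. The count table lists fungal genes only, which leaves no markers of another organism or cell type to check the mycelium label against. The share of a library's counts held by its 10 leading genes was 6.89 to 7.47% in the control and 8.18 to 9.09% at Day 15. In bulk RNA, a change in the RNA made per hypha and a change in the proportion of 1 kind of hypha cannot be told apart. The study describes the liquid controls as triplicate cultures and the replicates as biological. It does not say how columns map to the Day 15 libraries. For straw chemistry it pooled the material of 3 replicates, and whether RNA was sampled before pooling is not stated. The p-values thus measure the spread between libraries within groups, estimated over all 11 libraries in the fit.

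Most of the measured transcriptome differed between late straw growth and liquid malt. Of 18244 genes, 15462 had enough reads to test, and 10204 of them (66.0%) differed at an adjusted p under 0.05 in edgeR's quasi-likelihood test with Benjamini-Hochberg adjustment. The calls split evenly, with 5097 genes (33.0%) higher and 5107 genes (33.0%) lower at Day 15, and the median log2 fold change over all tested genes was -0.02. The 25th and 75th percentiles of the log2 fold changes over all tested genes were -0.65 and 0.63, and the 5th and 95th were -2.10 and 2.12. Among the called genes, 2421 had a log2 fold change above 1 and 2453 one below -1. Called log2 fold changes above 5 were found for 98 genes and below -5 for 80 genes, and values beyond 8 for 15 genes that rose and 7 that fell. The Day 15 and control libraries did not overlap in 74.3% of the tested genes. With such a background, the call of a single gene says little, and the sizes of the changes given below carry the description. Scaling to library totals alone moved the median of all genes by -0.26 and the split to 3766 higher and 6806 lower genes, so that 35.6% of the calls were rises.

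**Figure D1:**
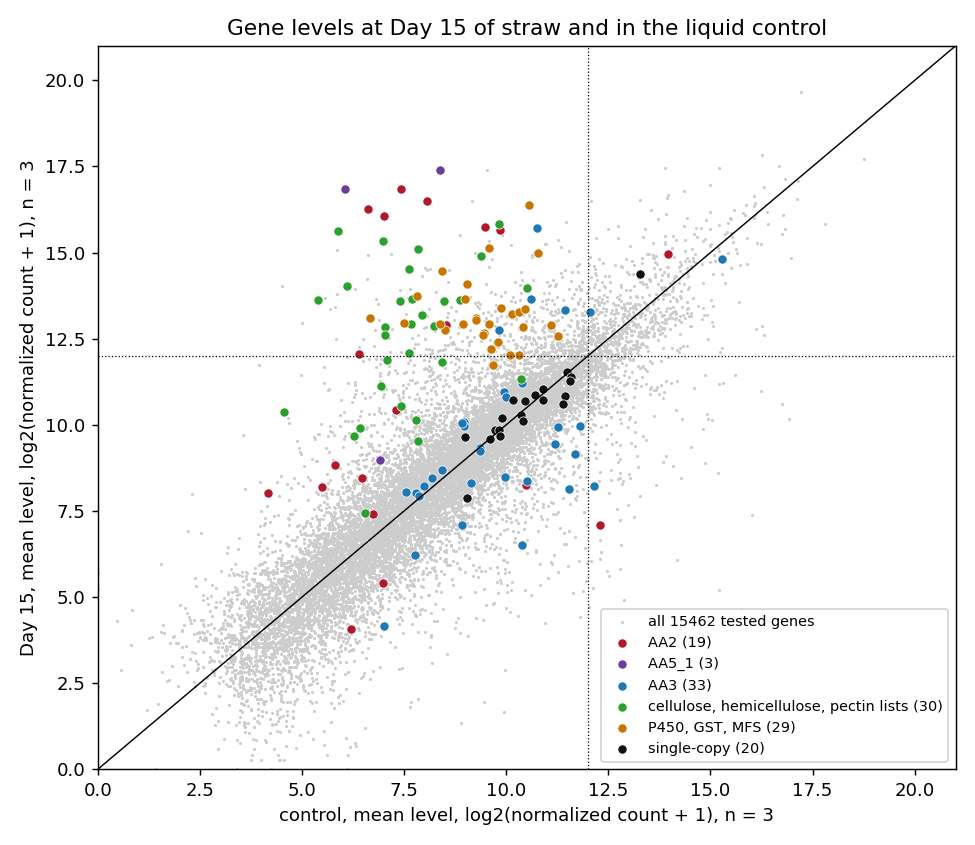
Mean level of every tested gene in the control (horizontal axis) and at Day 15 (vertical axis), both as log2 of the normalized count plus 1 over 3 libraries. The diagonal marks equal levels and the dotted lines mark a level of 12, and the highest of the AA5_1, AA2 and polysaccharide genes reach Day 15 levels above 15 from control levels below 10 among the 15462 tested genes drawn in grey, some of which lie as far from the diagonal.

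Levels are given below as log2 of the read count plus 1 after division by the library's size factor. On this scale 1263 genes had a mean above 12 at Day 15 and 1082 in the control, with 701 genes in both sets. The 562 genes above 12 at Day 15 only included 66 of the 145 genes in the lists described below. Of these 562 genes, 285 had passed that level on Day 4 and 394 on Day 10, and 148 had passed it on neither earlier day. The limit is a point on a continuum, as 225 genes lay within 0.25 above it at Day 15 and 239 within 0.25 below it.

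The AA2 class II peroxidases took 0.114%, 0.115% and 0.0989% of all counts in the control libraries and 1.90%, 1.74% and 1.70% in the Day 15 libraries. Every Day 15 library was above every control library, and the mean share was 16.3 times as high, at 1.78% ± 0.103 against 0.109% ± 0.00901 (SD, n = 3 each). The exact 2-sided permutation test gave p = 0.10, which is the smallest value that 3 libraries against 3 allow. The 19 AA2 genes comprise 9 versatile peroxidases (VP), which can oxidize lignin units as well as manganese, 9 short manganese peroxidases (MnP-short) and 1 generic peroxidase (GP). Among them 14 genes rose and 4 fell, where 33.0% of all tested genes were called in each direction, and the median log2 fold change was 3.12 against -0.02 over all genes. These 19 genes are the whole family as annotated from the genome, not a selection made on expression.

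Among the versatile peroxidases, VP #1412926 carried the largest rise. It had 311, 261 and 288 reads in liquid malt and 85365, 88683 and 152771 at Day 15, and its levels went from 7.45, 7.45 and 7.36 to 16.85, 16.85 and 16.87. The log2 fold change was 9.42 ± 0.23 (standard error, adjusted p = 3.49e-12, edgeR), with Day 15 libraries that hardly differed from each other. VP #897918 followed, with control levels of 7.94, 8.15 and 8.08, Day 15 levels of 16.64, 16.46 and 16.38 and a log2 fold change of 8.42 ± 0.20. These 2 genes were the most counted AA2 genes of late straw growth.

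VP #1487275 rose from 9.99, 9.92 and 9.62 to 15.81, 15.58 and 15.59, a log2 fold change of 5.79 ± 0.25. VP #1360396 went from 6.56, 6.45 and 6.17 to 12.12, 12.06 and 12.02, a change of 5.66 ± 0.14. VP #918032 and VP #1110945 rose less and stayed at modest levels, with Day 15 means of 10.42 and 8.83 and log2 fold changes of 3.12 ± 0.51 and 3.07 ± 0.47. The spread between Day 15 libraries was widest in #1110945, whose levels were 9.41, 8.77 and 8.30.

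Versatile peroxidases that did not follow this rise had control levels that differed from each other. VP #310665 was already the most abundant peroxidase of the control, at 14.01, 14.08 and 13.82, and reached only 15.04, 14.82 and 15.03 at Day 15 (log2 fold change 0.97 ± 0.21, adjusted p = 0.00111, edgeR). VP #1359988 had levels of 6.90, 6.43 and 6.87 in the control and 7.42, 7.83 and 6.99 at Day 15, and its log2 fold change of 0.67 ± 0.39 did not pass the test (adjusted p = 0.145). Its call turned on the other straw libraries in the fit, because the control and Day 15 libraries alone gave 0.66 with an adjusted p of 0.00675 (edgeR). VP #935251 was the versatile peroxidase that fell, from 10.47, 10.48 and 10.51 to 8.19, 8.16 and 8.39, a log2 fold change of -2.26 ± 0.15.

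The short manganese peroxidases, which oxidize manganese ions that then act on lignin and can oxidize phenols without manganese as well, showed the widest range. MnP-short #1347226 had levels of 6.61, 6.67 and 6.61 in the control and 16.30, 16.37 and 16.13 at Day 15, a log2 fold change of 9.63 ± 0.41 and the largest of the AA2 family. MnP-short #1185543 rose from 6.96, 7.03 and 7.01 to 16.05, 16.16 and 16.02 (9.06 ± 0.47), and #1340324 from 9.44, 9.58 and 9.41 to 15.79, 15.86 and 15.56 (6.24 ± 0.21). In none of these 3 genes did a control library come within 5 log2 units of a Day 15 library. MnP-short #1486819 changed by 4.36 ± 0.18 and reached a mean of 12.89, while #855582 changed by 1.98 ± 0.14 and reached 8.46. The fragments #1487289 and #1487292, annotated as lacking part of the protein, rose by 3.87 ± 0.62 and 2.70 ± 0.56 to Day 15 means of 8.01 and 8.21.

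MnP-short #1363610 went the opposite way and left the set of abundant genes. It had 9150, 7846 and 8234 reads in the control libraries, a level of 12.32, 12.35 and 12.19, and 87, 120 and 164 reads at Day 15, a level of 6.92, 7.33 and 7.02. Its log2 fold change was -5.22 ± 0.17 (adjusted p = 2.45e-11, edgeR). MnP-short #1418086 fell from a mean of 6.20 to 4.08 (-2.21 ± 0.22), and the generic peroxidase #1560842, a fragment, from 6.98 to 5.41 (-1.63 ± 0.18).

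**Figure D2:**
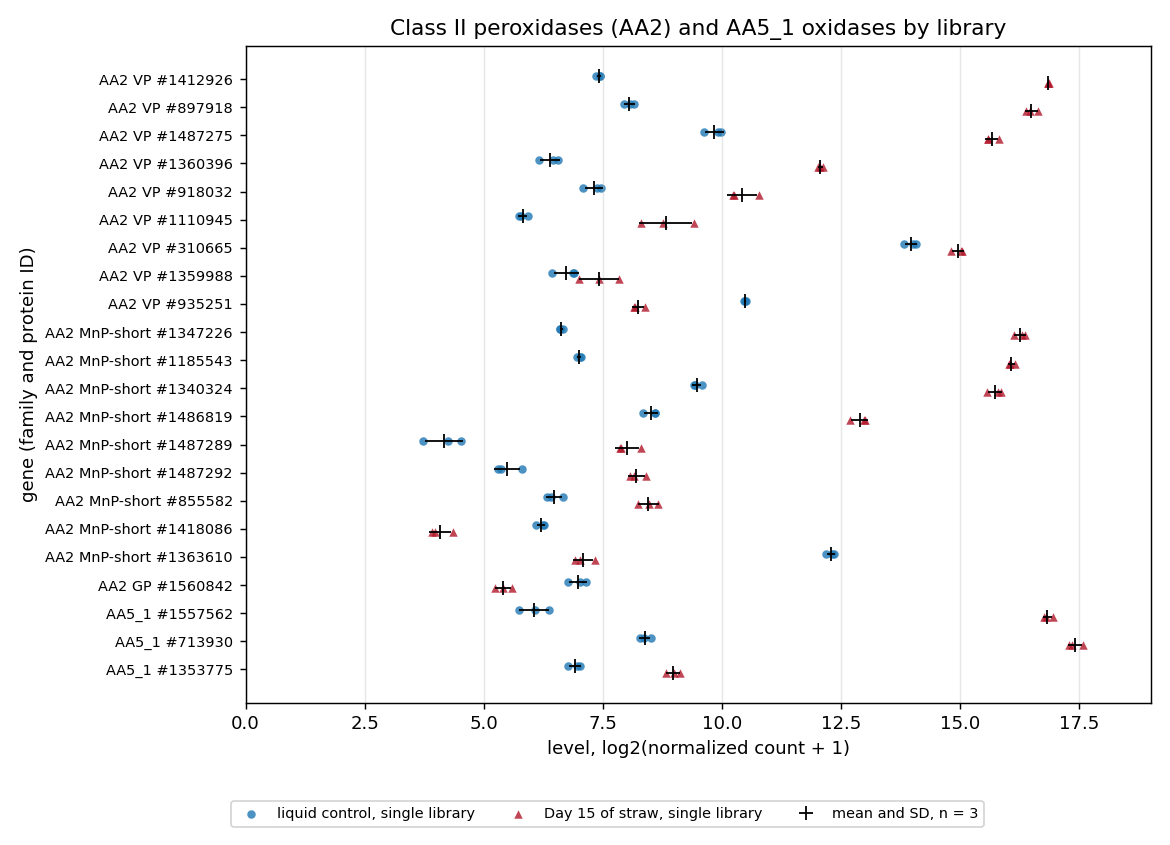
Level of each of the 19 AA2 peroxidase genes and 3 AA5_1 oxidase genes (vertical axis) in single libraries, as log2 of the normalized count plus 1 (horizontal axis), with the mean and SD of 3 libraries per group. Circles are control libraries and triangles Day 15 libraries, with MnP-short #1363610 at 12.29 in the control and 7.09 at Day 15. The 2 groups did not overlap in these 22 genes, as in 74.3% of all tested genes. In VP #1359988, which was not called, the nearest libraries lay close, at 6.90 in the control and 6.99 at Day 15.

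The peroxidase transcripts of the 2 cultures were thus made up of different genes. VP #310665 and MnP-short #1363610 together held 81.3% ± 0.657 (SD, n = 3) of the AA2 counts in the control and 6.28% ± 0.651 at Day 15. VP #1412926, VP #897918 and MnP-short #1347226, #1185543 and #1340324 together held 5.30% ± 0.299 in the control and 80.6% ± 1.16 at Day 15. Within those 5 genes the versatile and manganese peroxidases had near equal parts at Day 15, with 41.1% ± 0.943 and 39.5% ± 2.01 of the AA2 counts. These 5 genes were picked as the most counted at Day 15, so their Day 15 share is a description.

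On straw the makeup had not been the same at earlier days. The 5 genes held 6.29 to 6.64% of the AA2 counts in the 2 Day 4 libraries, 28.2 to 56.3% in the 3 Day 10 libraries and 79.8 to 82.0% in the 3 Day 15 libraries. The AA2 share of all counts moved the other way, and was 7.83 and 7.86% in the Day 4 libraries, 2.86 to 3.73% in those of Day 10 and 1.70 to 1.90% in those of Day 15. The Day 15 libraries thus had the lowest AA2 shares of the 8 straw libraries.

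**Figure D3:**
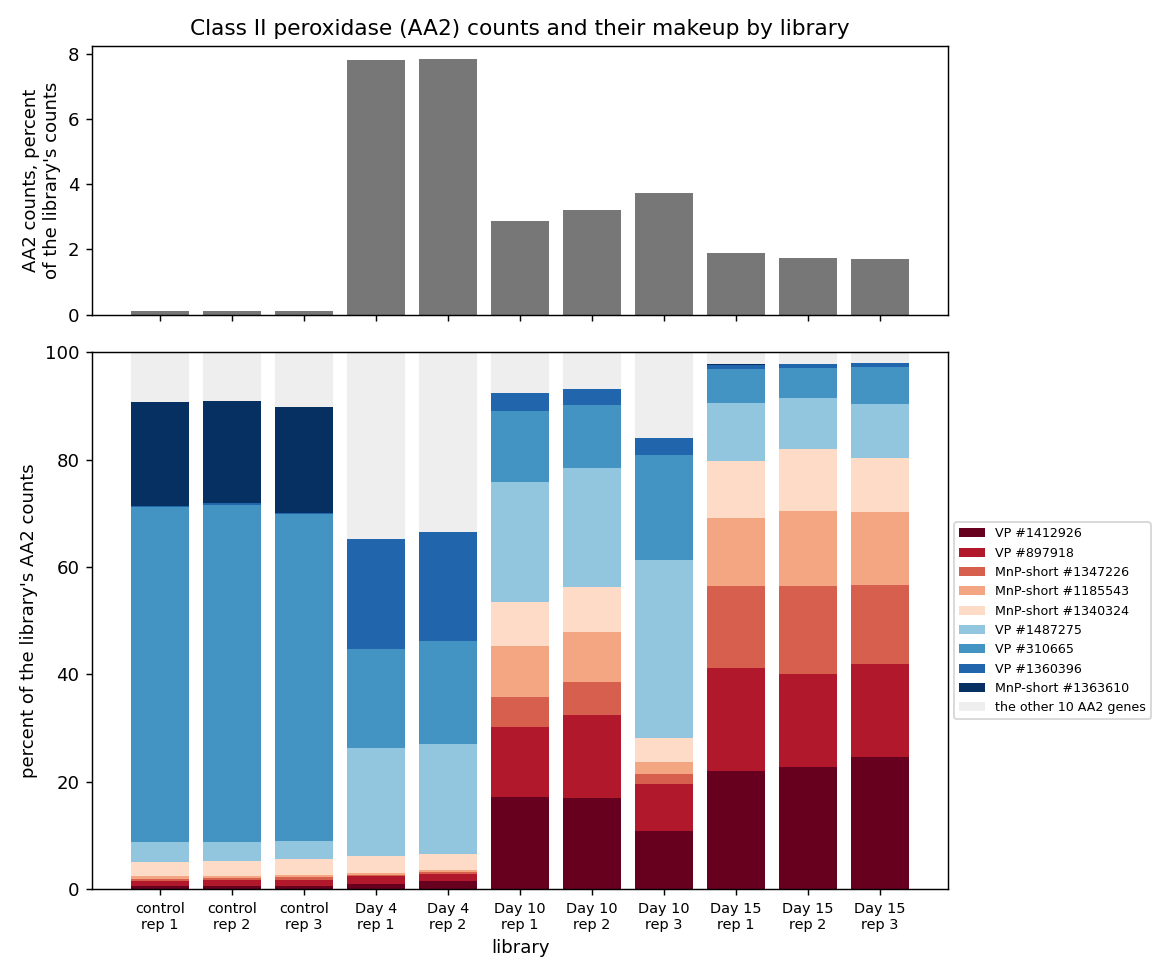
Upper panel, AA2 counts as a percent of all counts in each of the 11 libraries. Lower panel, the percent of each library's AA2 counts taken by 9 named genes and by the other 10, where VP #310665 and MnP-short #1363610 dominate the control (81.3%) and the 5 genes in red shades hold 80.6% on average at Day 15.

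Read counts depend on gene length, so the order of AA2 levels at Day 15 was taken from normalized counts per kilobase of gene, introns included. VP #1412926 was highest with 65503 per kilobase and its 3 libraries (65136 to 66106) lay above all others. MnP-short #1347226 and VP #897918 came next with 57588 and 53631, and their libraries overlapped. MnP-short #1340324, MnP-short #1185543 and VP #1487275 formed a group at 40144, 38800 and 37881 in which neighbours were not separated by their spread. VP #310665 followed at 18540, against 9314 in the control. The remaining 12 genes lay between 4451 (MnP-short #1486819) and 9.13 (MnP-short #1418086) per kilobase.

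The AA5_1 copper radical oxidases, a group that includes glyoxal oxidases able to feed hydrogen peroxide to peroxidases, took 0.00246%, 0.00209% and 0.00202% of the control counts and 0.964%, 1.08% and 0.988% of the Day 15 counts. The means were 0.00219% ± 0.000238 and 1.01% ± 0.0604 (SD, n = 3), a 461-fold difference, and the exact 2-sided permutation test again gave its smallest value, p = 0.10. These 3 genes were listed by the study because they were highly transcribed and secreted on straw, so their direction is not independent evidence. AA5_1 #1557562 had the largest rise of any gene in the lists, from 6.36, 6.08 and 5.73 to 16.76, 16.95 and 16.80, a log2 fold change of 10.75 ± 0.23 (adjusted p = 1.54e-12, edgeR). AA5_1 #713930 was the more abundant, with 652, 491 and 546 reads in the control and 116059, 146186 and 214701 at Day 15 (9.01 ± 0.16). AA5_1 #1353775 rose by 2.05 ± 0.32 to a mean of only 8.98.

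Family AA3, flavin oxidoreductases that include aryl-alcohol oxidases and sugar oxidases or dehydrogenases, changed in both directions. Of the 30 AA3_2 genes, 29 were tested, 11 rose against a background of 33.0% of all genes, 12 fell and 6 were not called, and #1488846 had no read in any library. The median log2 fold change of 0.07 was close to that of all genes. The 30 genes are the annotated subfamily, not a selection on expression. Scaling to library totals gave 9 higher and 14 lower genes, and leaving out 1 library gave 9 or 10 higher and 12 lower genes.

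The AA3_2 rises were led by #1349968, with levels of 10.50, 10.58 and 10.71 in the control and 13.60, 13.62 and 13.70 at Day 15 (log2 fold change 3.02 ± 0.19), and #823803, which went from 9.83, 9.78 and 9.85 to 12.93, 12.60 and 12.76 (2.93 ± 0.12). Next were #1399288 at 1.89 ± 0.15, #1343556 at 1.21 ± 0.10 and #1424706 at 1.09 ± 0.08. The other 6 rises, in #1399257, #1410843, #1538961, #1519516, #1483602 and #1519533, ran from 0.98 down to 0.23. The last 2 were close to the limit, with adjusted p-values of 0.0241 for #1483602 (0.0949 without Day 15 replicate 2, 0.073 without control replicate 2 and 0.0544 without control replicate 3) and 0.0415 for #1519533 (0.0522 to 0.102 without any 1 library). For #1519533 scaling to library totals turned the log2 fold change to -0.032.

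The AA3_2 falls were deeper than the rises were high. AA3_2 #1388653 dropped from 12.14, 12.17 and 12.11 to 8.25, 8.25 and 8.16, a log2 fold change of -3.95 ± 0.12 (adjusted p = 1.83e-11, edgeR). AA3_2 #1394538 went from 10.46, 10.55 and 10.15 to 6.61, 6.16 and 6.73 (-3.89 ± 0.17), and #1358588 from 11.53, 11.52 and 11.52 to 8.26, 8.14 and 8.01 (-3.41 ± 0.24). AA3_2 #1422328, the most counted member in both cultures, had 15.32, 15.28 and 15.23 in the control and 14.70, 14.72 and 15.06 at Day 15, and its change of -0.46 ± 0.24 was not called (adjusted p = 0.111, edgeR). Predicted secretion did not separate the directions, since 5 of 12 secreted members rose and 6 fell, against 6 and 5 of the 16 tested members without a predicted signal.

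Alcohol oxidases of subfamily AA3_3, which act on simple alcohols such as methanol, included the largest AA3 change. AA3_3 #1364967 rose from 10.76, 10.86 and 10.64 to 15.69, 15.71 and 15.72, a log2 fold change of 4.93 ± 0.16, and #1467319 rose by 1.10 ± 0.12. AA3_3 #1484504 fell by 2.57 on the log2 scale, from a mean of 11.69 to 9.14. The AA3_4 gene #1404761 had means of 9.36 and 9.25 and was not called (-0.13 ± 0.11, adjusted p = 0.313, edgeR). AA3 genes #1481505, with no read, and #1410997, with 1 to 15 reads in these 6 libraries, were not tested.

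Genes for cutting cellulose, hemicelluloses and pectin stood higher at Day 15 almost without exception. The 30 genes of these lists took 0.0388%, 0.0377% and 0.0367% of the control counts and 1.34%, 1.48% and 1.33% of the Day 15 counts, a 36.7-fold difference of the means (exact 2-sided permutation test, p = 0.10, the smallest possible). Of the 30 genes 29 rose, none fell, and the median log2 fold change was 5.17. The study had selected these genes because they were highly transcribed on straw in these libraries, and for part of them on the Day 15 values themselves, so their number and direction are not independent evidence. The lists hold only part of families such as AA9, GH7, GH28 and CE16, which have further genes annotated in the genome. The sizes and the order among the listed genes are the description that follows.

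Pectin enzymes had the largest median of these lists, at 6.46. CE12 #832761, of a family that removes acetyl groups from rhamnogalacturonan, had 109, 84 and 103 reads in the control and 31168, 43111 and 65800 at Day 15, a log2 fold change of 9.74 ± 0.33. The polygalacturonase GH28 #1447784 went from 7.67, 7.61 and 7.57 to 14.17, 14.80 and 14.61 (6.92 ± 0.27). The family GH27 alpha-galactosidase #1498325 and the exo-arabinanase GH93 #397425 changed by 6.01 ± 0.15 and 5.94 ± 0.15. The 4 genes together held 0.00572% ± 0.000162 of the control counts and 0.506% ± 0.0555 of the Day 15 counts, a ratio of 88.5.

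Hemicellulose enzymes rose in 13 of 13 genes, and their median change was 5.49 on the log2 scale. The acetyl esterase CE16 #1412498 had levels of 7.18, 6.73 and 7.05 in the control and 15.21, 15.52 and 15.31 at Day 15 (8.34 ± 0.27). CE15 #1486135, of the glucuronoyl esterase family that cuts ester bonds between lignin and xylan, rose from 5.63, 5.28 and 5.27 to 13.59, 13.69 and 13.55 (8.22 ± 0.17). GH2 #1437352, of a family with beta-galactosidases and beta-mannosidases, rose by 7.26 ± 0.39 to a mean of 15.12. The smallest rises were in the xylanase GH10 #659690 (2.34 ± 0.18), CE1 #139112 (3.40 ± 0.19) and GH10 #1520578 (4.63 ± 0.13), all 3 with Day 15 libraries at least 2 log2 units above the control. All 4 listed genes of family GH10, the endoxylanases, rose, by 2.34 to 5.86.

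AA9 lytic polysaccharide monooxygenases, copper enzymes that cleave crystalline cellulose by oxidation, rose in 5 of 5 listed genes with a median of 4.53. AA9 #1339229 went from 319, 233 and 308 reads to 10870, 11710 and 10454 reads (6.23 ± 0.26), #1403153 from levels of 8.80, 8.84 and 8.97 to 13.54, 13.87 and 13.46 (4.74 ± 0.17) and #1452362 changed by 4.53 ± 0.26. AA9 #1420749 and #1456024 changed by 3.49 ± 0.30 and 3.18 ± 0.29. Day 15 replicate 3, the deepest of the 3 Day 15 libraries, was the lowest of them in 5 of 5 AA9 genes and 5 of 8 cellulase genes, against 30.2% of all tested genes. The share of these 5 AA9 genes was 0.128%, 0.128% and 0.0836% of counts in Day 15 replicates 1 to 3. All 5 genes kept their call without replicate 3. The cause of the lower share in replicate 3 was not tested.

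Cellulases rose in 7 of 8 listed genes, with a median of 3.48. The cellobiohydrolase GH7 #1347545, which releases cellobiose from chain ends, had 144, 106 and 98 reads in the control and 13585, 16327 and 14316 at Day 15, a level change from 6.34, 6.16 and 5.82 to 14.20, 14.41 and 13.45 (log2 fold change 7.95 ± 0.31). The GH6 gene #1477052 of the other cellobiohydrolase family rose by 4.80 ± 0.17 and GH5 #1401866 by 4.18 ± 0.17, while GH5_22 #1412845, GH131 #492772 and GH5 #1063890 rose by 3.43 ± 0.14, 1.68 ± 0.19 and 0.95 ± 0.15. GH7 #355477 had levels of 6.32, 6.69 and 6.60 in the control and 6.82, 8.36 and 7.12 at Day 15, and its change of 1.02 ± 0.56 was not called (adjusted p = 0.123, edgeR). With only the control and Day 15 libraries in the fit, 8 of 8 cellulase genes were called higher.

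The 8 genes for oligosaccharides, starch, glucans, chitin and mannans all rose, but less, with a median of 2.74. The largest changes were in the beta-glucosidase family GH3, with #1364811 at 4.64 ± 0.33 and #224000 at 3.53 ± 0.18, and in the glucoamylase family, with GH15 #1349191 at 3.32 ± 0.15. The glucanase GH16 #1484581 and GH3 #593055 changed by 2.11 ± 0.09 and 1.94 ± 0.16. The chitinase GH18 #1351991 was the smallest at 0.45 ± 0.17 (adjusted p = 0.0325, edgeR), with control levels of 9.15, 9.29 and 9.17 against 9.73, 9.70 and 9.61. Its adjusted p was 0.0508 to 0.0828 without Day 15 replicate 1, 2 or 3 or control replicate 1 or 3, and 0.347 with library totals as the scaling. This list too was selected by the study on straw levels.

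**Figure D4:**
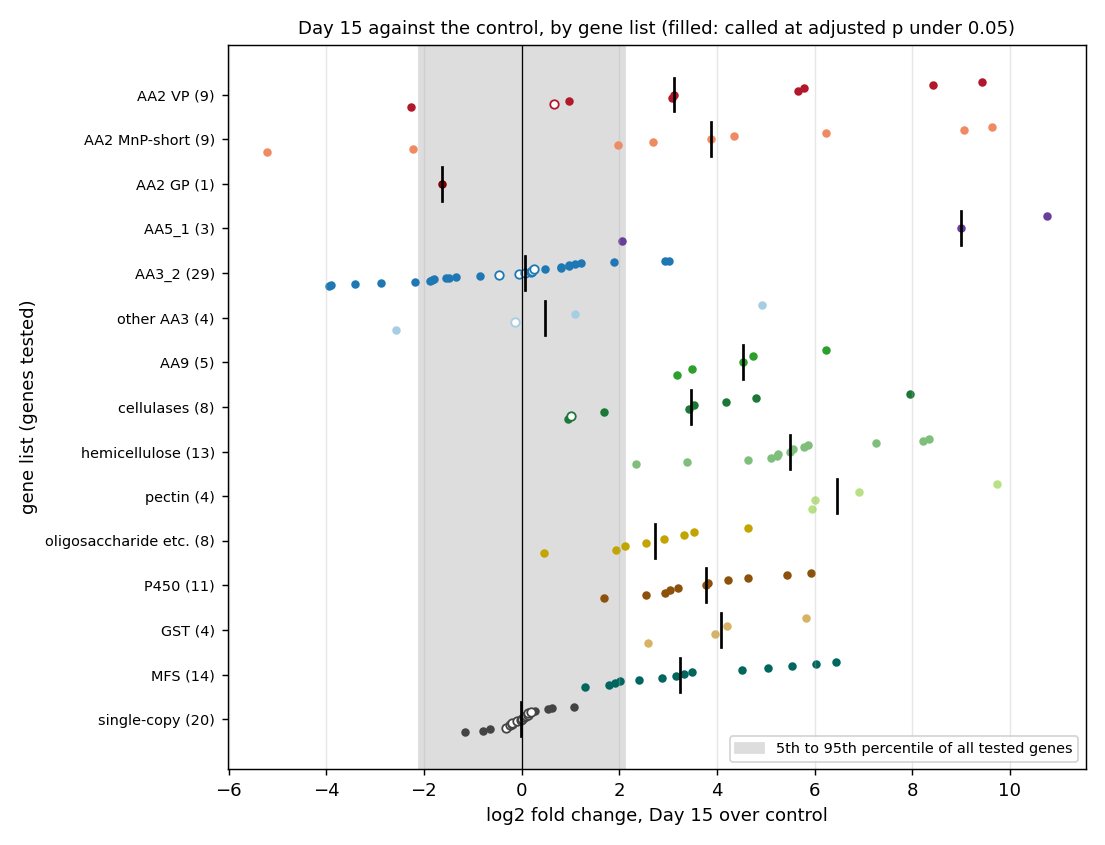
Log2 fold change of Day 15 over the control (horizontal axis) for each tested gene of 15 lists (vertical axis), filled where called by edgeR, with the median of each list as a bar and the 5th to 95th percentile of all tested genes (-2.10 to 2.12) shaded. AA3_2 and the single-copy genes centre near 0 with medians of 0.07 and -0.01, whereas the medians of the pectin list (6.46) and AA5_1 (9.01) lie to the right of the shaded range and AA5_1 #1353775 (2.05) lies inside it.

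Intracellular and membrane proteins for handling small molecules were taken from a set the study chose on these libraries, as members of groups of similarly transcribed genes with a high mean level on all 3 straw days and not in the control. Their direction is therefore not independent evidence. Of these genes 11 of 11 P450s, 4 of 4 GSTs and 14 of 14 MFS transporters rose, with medians of 3.77, 4.08 and 3.24. The P450s were led by CYP5150 #1364780, from 7.71, 7.94 and 7.76 to 13.78, 13.91 and 13.54 (5.93 ± 0.23), by CYP53 #1398198, of the benzoate hydroxylase family, at 5.44 ± 0.13, and by CYP5150 #1537019 at 4.65 ± 0.18. The smallest P450 changes were CYP5144 #1487024 at 1.68 ± 0.10, CYP5144 #1416167 at 2.54 ± 0.27 and CYP5137 #1404557 at 2.94 ± 0.13.

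GST #1357910 stood out by level. It had 10.55, 10.60 and 10.50 in the control and 16.24, 16.58 and 16.34 at Day 15, a log2 fold change of 5.82 ± 0.18, and the 4 GST genes together took 0.0195% ± 0.000364 and 0.457% ± 0.0312 of the counts. GST #1399835, #1516684 and #1364150 changed by 4.20 ± 0.14, 3.96 ± 0.14 and 2.58 ± 0.17. Among the transporters, MFS #1452357 changed by 6.44 ± 0.12, #334352 by 6.03 ± 0.20 and #540241 by 5.53 ± 0.14. The smallest transporter changes were 1.29 ± 0.13 in #1422437, 1.80 ± 0.12 in #1451844 and 1.92 ± 0.09 in #1486070. Replicates were tight in these 3 lists, with median SDs of 0.05, 0.10 and 0.09 log2 units at Day 15, near the 0.14 of all tested genes or below it.

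The 20 single-copy genes that the study used for its phylogeny served as genes chosen with no view to straw. Of these, 4 rose, 4 fell and 12 were not called, against 66.0% called over all tested genes, with a median of -0.01 and a range from -1.16 to 1.07. SCP160 #866538, named for a yeast RNA-binding protein, rose by 1.07 ± 0.12, SKI3 #1402874, named for a yeast partner of the RNA exosome, by 0.62 ± 0.12 and RAV1 #1400924, named for a yeast regulator of proton pump assembly, by 0.54 ± 0.11. The falls were largest in UNK51 #1509070 (-1.16 ± 0.15), SSM4 #1453310, named for a yeast ubiquitin ligase (-0.80 ± 0.14), and UNK6_KINESIN #1399530 (-0.64 ± 0.10). Scaling to library totals gave 3 higher and 10 lower genes, while the 6 genes named here kept their direction and call.

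Genes in none of the lists made up most of the changes, and the files do not pair their IDs with names. Of the called genes whose libraries did not overlap, the largest unlisted rise was in #1355747, with 46, 29 and 37 reads in the control and 11991, 13013 and 20926 at Day 15 (log2 fold change 9.54 ± 0.24, adjusted p = 3.49e-12, edgeR). Gene #1480897 was next, from 89, 93 and 103 to 22932, 28270 and 45193 reads (9.25 ± 0.20). The largest fall was in #1346203, a locus of only 350 bp, with 98160, 77515 and 105152 reads in the control and 14, 13 and 54 at Day 15 (-10.95 ± 0.77), and without Day 15 replicate 3 its log2 fold change was -11.57. Gene #1397867 fell from 65495, 53756 and 71844 to 21, 25 and 60 reads (-9.98 ± 0.48). These 2 falls were larger than any fall among the listed genes, where MnP-short #1363610 was the lowest at -5.22.

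The most counted unlisted genes also changed places. In the control #1401083 took 1.79%, 1.80% and 1.98% of all counts and at Day 15 0.743%, 0.731% and 0.776%, and #1421205 went from 0.874%, 0.964% and 1.04% to 0.167%, 0.188% and 0.259%. At Day 15 #1409925 was the most counted gene with 2.47%, 3.41% and 2.79%, against 0.600%, 0.663% and 0.647% in the control, and #1396291 had 0.773%, 0.868% and 0.791% against 0.325%, 0.323% and 0.351%. The log2 fold changes of these 4 genes were -1.05 ± 0.16, -1.97 ± 0.24, 2.45 ± 0.39 and 1.54 ± 0.15. Earlier on straw, #1409925 and #1396291 were below the control at Day 4 (-3.53 and -1.35) and not called against it at Day 10 (0.32 and 0.36). Genes #1401083 and #1421205 were called lower than the control at Day 4 and Day 10 as well. Complete loss or gain of reads was rare, since 55 genes had no read in the 3 control libraries and some at Day 15, 2 of them with 100 or more reads in all, and 176 genes had none at Day 15 and some in the control, 1 of them with 100 or more.

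Several listed genes lay next to each other in the order of the annotated genome. MFS #334352 was the immediate neighbour of VP #1412926, and their log2 fold changes at Day 15 were 6.03 and 9.42. AA3_2 #1358588, #1388653 and #1408514 lay within a stretch with 1 gene between the first and second of them and none after, and all 3 fell, by -3.41, -3.95 and -1.78. AA3_2 #1399257 and #1343556 were adjacent and rose by 0.98 and 1.21. AA5_1 #1557562 and #1353775 had 3 genes between them and rose by very different amounts, 10.75 and 2.05. Other pairs parted, as AA3_2 #1410843 (0.98, called) and #1422328 (-0.46, not called), with 2 genes between them, and #1414090 (0.25, not called) and #1509436 (-0.84, called), also with 2. The 2 MnP-short fragments had 2 genes between them, as had CYP512 #1410594 and #1361826, which rose by 3.77 and 3.82. Scaffold ends were read from the order of start positions alone, so a pair could span an end that the order does not show.

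Against the earlier straw days, late growth differed far more from Day 4 than from Day 10. At Day 15 1810 genes (11.7%) were higher and 1915 (12.4%) lower than at Day 10, 24.1% of the 15462 tested genes in all, and 4422 genes (28.6%) were higher and 4520 (29.2%) lower than at Day 4, 57.8% in all. Day 4 has 2 libraries and Day 10 has 3, so these counts do not rest on equal precision. Without Day 15 replicate 2, the Day 10 counts fell to 1154 higher and 1200 lower genes. The comparisons with the control, Day 4 and Day 10 share the Day 15 libraries.

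Versatile peroxidases had mostly dropped from their early levels. Of the 9 genes, 6 were lower than at Day 4 and 3 higher, with a median of -3.85, and 7 were lower than at Day 10. VP #1359988 was lower by -9.91 ± 0.51 than at Day 4, VP #1110945 by -8.63 ± 0.56, VP #918032 by -7.52 ± 0.62 and VP #1360396 by -6.86 ± 0.15 (log2 fold changes, edgeR). Of the 9 short manganese peroxidases, 7 were lower than at Day 4 and 2 higher, with a median of -1.68. For all tested genes the shares were 29.2% lower and 28.6% higher than at Day 4, and 12.4% lower than at Day 10. Among the 5 genes most counted at Day 15, VP #1412926 and #897918 were higher than at Day 4 by 1.89 ± 0.19 and 1.42 ± 0.17 and MnP-short #1347226 and #1185543 by 3.57 ± 0.36 and 3.15 ± 0.42, while MnP-short #1340324 was lower (-0.51 ± 0.18, adjusted p = 0.0278, edgeR). Against Day 10 MnP-short #1347226 was called, at 0.96 ± 0.28 (adjusted p = 0.0254), and the other 4 of these genes were not.

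The polysaccharide lists parted in the same comparison. Listed cellulases were lower at Day 15 than at Day 4 in 8 of 8 genes (median -2.42) and listed AA9 genes in 4 of 5 (median -2.42). Against Day 10 they were lower in 6 of 8 and 4 of 5. Over all tested genes, 29.2% were lower and 28.6% higher than at Day 4, and 12.4% lower and 11.7% higher than at Day 10. The study listed such genes partly for a high Day 4 mean in their group of similarly transcribed genes, so falls from Day 4 are not independent evidence. Pectin and side-chain enzymes were higher than at Day 4 in 3 of 4 genes and higher than at Day 10 in 3 of 4. The medians were 1.65 and 1.03. The polygalacturonase GH28 #1447784 was not called against Day 4 (-0.06 ± 0.23), nor GH93 #397425 against Day 10 (-0.15 ± 0.12). This list too was selected by the study on straw levels, so its rises are not independent evidence either. GH27 #1498325 was up by 3.36 ± 0.15 over Day 4 and 1.28 ± 0.12 over Day 10, and CE12 #832761 by 2.24 ± 0.27 and 1.29 ± 0.22. Hemicellulose genes were mixed, with 5 higher and 8 lower than at Day 4, among them GH2 #1437352 at 3.53 ± 0.39 and GH10 #659690 at -4.59 ± 0.20. The count shares show the same, since AA9 and cellulase genes together held 0.953 and 1.05% in the Day 4 libraries and 0.205 to 0.298% in the Day 15 libraries, and the pectin genes 0.138 and 0.167% against 0.449 to 0.560%.

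The AA5_1 genes were all lower at Day 15 than at Day 10, #713930 by -0.90 ± 0.11 and #1353775 by -2.39 ± 0.30, and none of the 3 was called against Day 4 (log2 fold changes of -0.39 to -0.01). The mean level of #713930 went from 17.61 (Day 4) through 18.31 (Day 10) to 17.41. The median change from Day 10 was near 0 in the P450s (-0.06), GSTs (-0.23) and transporters (0.17). Of these, 3 of 11 P450s were lower, 1 of 4 GSTs was higher, and 5 of 14 transporters were higher and 3 lower. Over all tested genes 24.1% were called against Day 10 and 57.8% against Day 4. The study chose these lists for high levels on all 3 straw days, so their levels across straw days are not independent evidence. Against Day 4 these lists went both ways, with 3 P450s higher and 5 lower (median -0.29), 1 GST higher and 1 lower (-0.09) and 5 transporters higher and 5 lower (-0.11). GST #1357910 and MFS #1394716 were higher by 2.37 ± 0.18 and 3.13 ± 0.13, and GST #1364150 and MFS #1454421 lower by -0.94 ± 0.17 and -1.68 ± 0.12. Of the 20 single-copy genes none was called against Day 10, and 4 were higher and 8 lower than at Day 4.

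**Figure D5:**
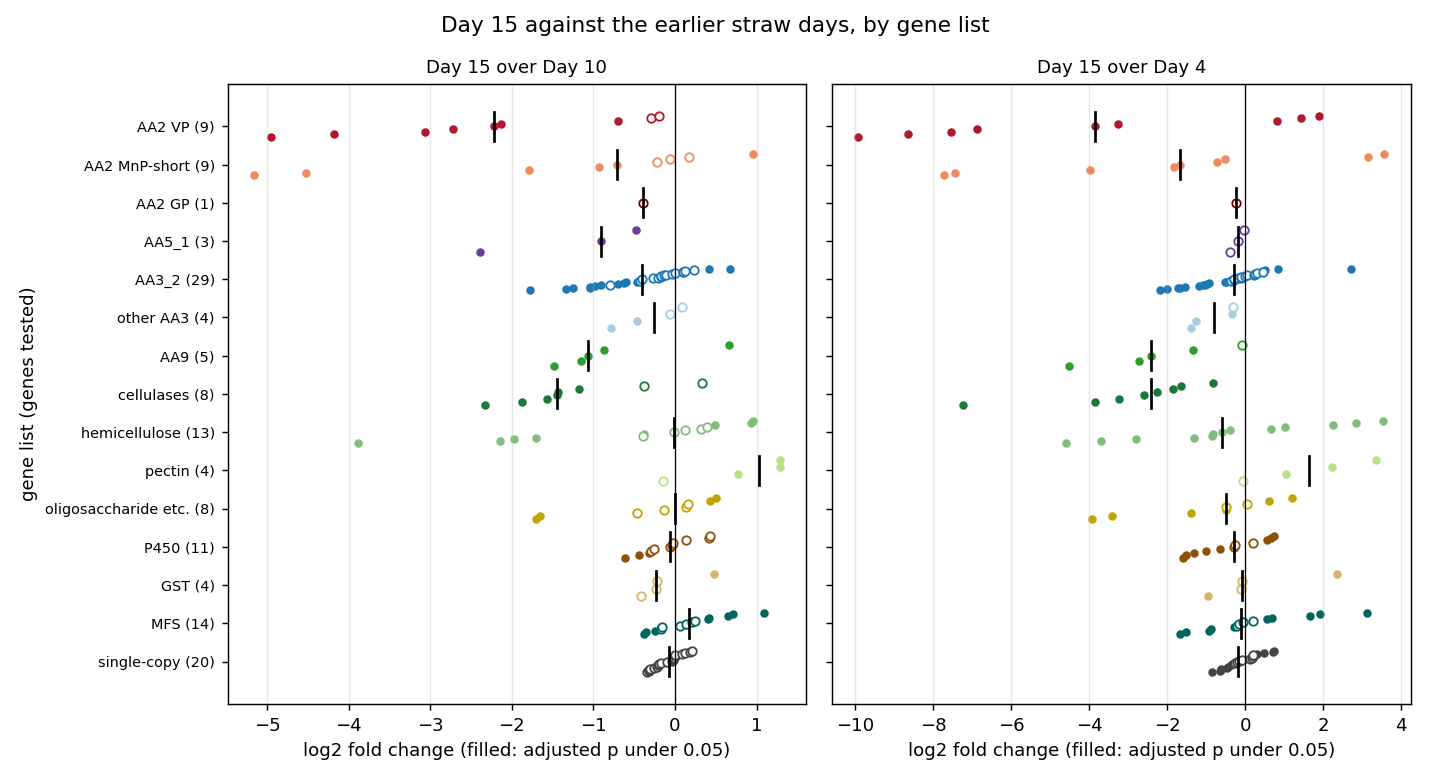
Log2 fold change of Day 15 over Day 10 (left) and over Day 4 (right) for each tested gene of the 15 lists, filled where called by edgeR, with list medians as bars and a different horizontal scale in each panel. Against Day 4 the medians of the versatile peroxidases (-3.85), AA9 (-2.42) and cellulases (-2.42) lie to the left of 0 and that of the pectin list (1.65) to the right, with 3 of 9 versatile peroxidases called higher.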

How the data were processed

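The deposited values are raw counts per gene, made by the authors with FastQC, Sickle trimming, unique TopHat2 matches to the genome of a derived monokaryon, and HTSeq. The submitters' notes name DESeq 1.5. Other versions and the strand setting were not given in the sources used here. Reads from the dikaryon's other nucleus may be lost, and those of near-identical copies or overlapping genes lost or split. Labels and paper differ on read length and on 6 or 7 days of preculture.

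Counts were tested with edgeR 4.0.16 in R 4.3.3 (TMM, filterByExpr with a minimum count of 10 and total of 15, 11 libraries, 4 group means, 7 residual degrees of freedom, quasi-likelihood F test, Benjamini-Hochberg, 0.05). Standard errors are the absolute log2 fold change over the root of F. Levels use DESeq2 1.42.0 size factors and a pseudocount of 1. Shares of counts were tested with exact permutation tests (scipy 1.17.1). The procedure was tested on simulated data. Alternatives were other scalings, filters, tests, a fold minimum, a replicate block and leaving out each library.

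Named genes were every AA2 and AA5_1 gene, the 3 largest and 3 smallest called changes of each other list with called genes against its majority, and, among unlisted genes, the 2 largest rises and falls and the 2 most counted per group. Genes outside this rule (AA3_2 #1422328, #1408514, #1488846, #1414090 and #1509436, GH7 #355477, CYP512 #1410594 and #1361826, MFS #1394716 and #1454421, and the other AA3 genes) were picked with their values in view. All genes and lists were chosen with earlier results of these data known. 18240 of 18244 IDs matched a locus tag of the reference table (assembly Polbr1), which gave gene order and length but no product names, so no sequence is shown.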

Additional observations from a re-analysis of the deposited data

Results flagged for a closer look

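A named gene is given here where its call against the control differed between Day 15 and an earlier straw day and the difference between the 2 days was itself called by edgeR. VP #1359988 was not called at Day 15 and stood higher than the control at Day 4 and Day 10, and Day 15 was lower by -9.91 than Day 4 and by -3.06 than Day 10 on the log2 scale. MnP-short #1418086 fell at Day 15 but not at Day 4 (difference -1.68). AA3_2 #1349968 and #1519516 rose at Day 15 but not at Day 4 (2.71 and 0.84), as did the single-copy gene RAV1 #1400924 (0.71). SSM4 #1453310 and UNK51 #1509070 fell at Day 15 but not at Day 4 (-0.45 and -0.85). The unlisted genes #1409925 and #1396291 were higher than the control at Day 15, lower at Day 4 and not called at Day 10. Day 15 was higher than Day 4 by 5.98 and 2.89 and higher than Day 10 by 2.12 and 1.18. For these differences between days, other scalings were not run on single genes.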

How the results depend on the processing

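Day 15 against the control gave 5097 higher and 5107 lower genes. Requiring a log2 change beyond 1 left 1640 higher and 1489 lower genes. DESeq2's Wald test gave 5228 and 4985, edgeR with DESeq2 size factors 5216 and 4992, no filter 5103 and 5137, a minimum count of 50 4838 and 4668, and the control and Day 15 libraries alone 5496 and 5603. Replicate numbers are shared by the groups. Same-numbered control and Day 15 libraries deviated together with correlations of -0.02 to 0.05, Day 10 and Day 15 libraries of 0.04 to 0.07 and Day 4 and Day 15 libraries of 0.06 to 0.07. Other-numbered libraries had correlations of -0.10 to 0.09 with the control, -0.05 to -0.01 with Day 10 and -0.07 to 0.01 with Day 4. Whether same-numbered libraries share more than a number was not tested. A replicate block gave 5212 and 5250 genes against the control, 2073 and 2144 against Day 10 and 4488 and 4644 against Day 4.

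Leaving out 1 library gave 4707 to 4846 higher and 4516 to 4716 lower genes against the control, 1154 to 1968 higher and 1200 to 2187 lower against Day 10, and 3619 to 4201 higher and 3848 to 4290 lower against Day 4. Genes above a level of 12 only at Day 15 numbered 535 to 570 without 1 library, 895 with a limit of 11, 312 with a limit of 13 and 454 with library totals, against 562. The difference in AA2, AA5_1 and polysaccharide shares was 1.61 to 1.71, 0.974 to 1.03 and 1.30 to 1.37 percentage points without 1 library. Of 1344 pairs of a named gene and an alternative, 1308 kept direction and call, 34 lost the call, 18 of them under the fold minimum, 1 gained it and 1 changed direction, AA3_2 #1519533 at -0.032 with library totals. The cause of these changes was not tested.

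Depth limits the genes with no reads in a group, since 2 of the 3 Day 15 libraries were smaller than every control library. Shares with 3 libraries against 3 cannot reach a p under 0.10, and the straw groups differ from the control in more than substrate.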
